A study of Homo sapiens with 14 samples.

Results

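The 78 genes described here carry symbols of mitochondrial ribosomal proteins. They were taken from the deposited count table as every protein-coding gene whose symbol begins with MRPL or MRPS followed by a number. By symbol, 49 MRPL genes were assigned to the large and 29 MRPS genes to the small subunit. The table holds 27142 genes. The symbols of MRPS30, MRPS18A and MRPS36 do not match the known place of their proteins, as given below. RNA came from IMR90 cells, a non-transformed human lung fibroblast line, labelled wild type. Cells received 2'3'-dideoxycytidine (ddC) at 20 uM for 24, 48, 72 or 96 h, with 3 libraries at each time, and 2 libraries came from untreated cells that had the water vehicle. The series' design gives the untreated cells a time of 0 h, whereas their sample labels give 4 days, so the length of their culture is not settled by the sources. The design text calls the libraries of a group biological replicates. All 5 groups share 1 cell line, and the study asked how the transcriptome changes at successive stages of mitochondrial DNA depletion.

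The mitochondrial ribosome translates the few proteins encoded by mitochondrial DNA, which are core subunits of the respiratory chain and ATP synthase. Its RNAs are transcribed from mitochondrial DNA, but all of its proteins are encoded in the nucleus, made in the cytosol and imported, so the particle draws on both genomes. The small subunit binds and decodes the mRNA, and the large subunit forms peptide bonds and releases the nascent chain through its exit tunnel towards the inner membrane. Many of these proteins descend from bacterial ribosomal proteins, and most others are classed as specific to mitochondria. ddC is a chain-terminating cytidine analogue that the mitochondrial DNA polymerase incorporates, which lowers the copy number of mitochondrial DNA in dividing cells.

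No member passed the threshold at any of the 4 ddC times or between 96 h and 24 h. None passed it along the exposure times or in the joint test of all ddC times. With subunits taken from the symbols, the ratio of MRPL to MRPS mRNA stayed between 2.202 and 2.302 in all 14 libraries. MRPL18 came nearest, with an adjusted p of 0.0596 for the trend and of 0.101 at 96 h against untreated, where it was 12.6% lower, by edgeR's quasi-likelihood test. It was called in some of the alternative fits, with the score of nuclear RNA as a covariate or a correction for transcript length among them. The table has no row for a gene of the mitochondrial chromosome, so the mitochondrial rRNAs and mRNAs were not analysed here. All 78 members passed the low-count filter, and the lowest count of any member in any library was 123. Their genes lie on 21 chromosomes, and the counts of the deposited table were made on build hg19. Another 4 rows with such symbols are pseudogenes or non-coding RNAs and were left out. Among these, MRPS31P5 had 37 to 72 counts per library, MRPL45P2 had 5 to 13, MRPL42P5 had 2 to 10 and MRPL23-AS1 had 0 in every library.

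The promoters of the members that the results turn on are given first. Whether these sequences bear on the members' levels was not tested. RefSeq entries on build GRCh38.p14 were matched for 70 members, 69 by current symbol and 1 by an older symbol. MRPL2, MRPL10, MRPL13, MRPL15, MRPL21, MRPL23, MRPL35 and MRPS28 were not matched. Each line holds the 120 bases just before the most upstream listed start, 5′ to 3′ on the gene's strand. Capitals mark exact strings on either strand. CCGGAAGT is a string of the motif of ETS factors such as GABPA, and AAGATGGC is the core of the YY1 motif. GCGCA, any base and GCGC is the motif of NRF1. NRF1, GABPA and YY1 are known as regulators of nuclear genes for mitochondrial proteins.
MRPL18 (chr6:159789692-159789811, plus strand): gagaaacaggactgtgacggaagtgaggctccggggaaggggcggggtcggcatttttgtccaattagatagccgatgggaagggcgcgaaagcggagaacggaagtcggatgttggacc
MRPL47 (chr3:179604647-179604766, minus strand): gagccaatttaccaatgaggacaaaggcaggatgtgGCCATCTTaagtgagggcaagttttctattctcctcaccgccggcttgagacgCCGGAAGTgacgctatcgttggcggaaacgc
MRPS24 (chr7:43869518-43869637, minus strand): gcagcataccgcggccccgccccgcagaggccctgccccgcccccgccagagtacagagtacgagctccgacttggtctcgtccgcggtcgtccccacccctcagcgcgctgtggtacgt
MRPL3 (chr3:131502972-131503091, minus strand): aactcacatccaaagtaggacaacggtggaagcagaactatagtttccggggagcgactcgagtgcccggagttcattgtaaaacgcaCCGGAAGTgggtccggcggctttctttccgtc
MRPS25 (chr3:15065316-15065435, minus strand): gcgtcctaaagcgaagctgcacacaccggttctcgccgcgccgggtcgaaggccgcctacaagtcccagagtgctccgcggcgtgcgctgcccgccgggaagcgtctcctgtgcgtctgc

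MRPL47 carried an ETS match and a YY1 match in this stretch and MRPL3 carried an ETS match. The stretches of MRPL18, MRPS24 and MRPS25 held none of the 3 exact letter strings. Near matches, such as acggaagt in the stretch of MRPL18, were not counted. In windows of 300 bases, 250 before and 50 after the start, AAGATGGC or its reverse complement occurred in 20 of the 70 matched members (28.6%) and in 3.86% of 15843 protein-coding genes. The ETS string occurred in 11 members (15.7%) against 6.16% of all genes, and the NRF1 string in 8 members (11.4%) against 8.59%. At least 1 of the 3 strings was found in 32 members (45.7%) and in 16.8% of all genes. The E-box CACGTG stood in 11.4% of members and 8.82% of all genes, and the TATA string TATAAA in 4.3% and 9.75%. The median GC content of the windows was 60.3% for members and 62.7% for all genes.

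In 15 of the 20 members with a YY1 string, a match lay on the gene's own strand just after the start. Its first base fell 7 to 36 bases into the transcript, counting the first transcribed base as 1. The following 28-base windows around the match are shown because this was the string that set the members' windows farthest from the rest, and capitals mark AAGATGGC.
MRPL51 (chr12:6493224-6493251, minus strand): ggtaaggcccAAGATGGCtgtcttcgcc
MRPS24 (chr7:43869481-43869508, minus strand): cgcttggcccAAGATGGCggcctccgtg
MRPL20 (chr1:1407261-1407288, minus strand): cgacccgggcAAGATGGCagcggcgctg
MRPL45 (chr17:38297171-38297198, plus strand): ttgcgggaacAAGATGGCagcccccata
MRPS30 (chr5:44808950-44808977, plus strand): atcgcgggcaAAGATGGCggcggccagg
MRPS18A (chr6:43687765-43687792, minus strand): taggtttttgAAGATGGCggccctcaag
MRPS18B (chr6:30617853-30617880, plus strand): ggcgtacgtcAAGATGGCggcgtctgta

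These letters contain ATG, and whether they serve a bound factor, a start codon or neither was not tested. A gene on the opposite strand started within 1000 bases of the start of 26 of the 78 members (33.3%), counted on the hg19 coordinates of the deposited table, against 11.5% of its 19302 protein-coding genes. MRPL43 and TWNK, the mitochondrial DNA helicase, had starts 21 bases apart. MRPS12 and SARS2, the mitochondrial seryl-tRNA synthetase, were 58 bases apart, and MRPL47 and NDUFB5, a complex I subunit, were 141 bases apart. MRPL46 and MRPS11, 1 protein of each subunit, started 51 bases from each other.

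The libraries held 9398703 to 12147402 counts, and no 2 of them were identical. The members took 0.327% to 0.376% of the counts. Fibroblast markers were abundant, with COL1A1 at 15690 to 22850 and VIM at 4994 to 5724 CPM (read counts scaled to a common library size), while CDH1, PECAM1, CDH5 and CD3E, which mark epithelium, endothelium and T cells, had 0 counts in every library. The library sizes were scaled by the trimmed mean of M values (TMM). MALAT1, a nuclear RNA, ranged from 52.1 to 409.1 CPM, with wide differences inside groups. Reads on genes that overlap an abundant gene on the opposite strand, over 237 gene pairs and called the opposite-strand share here, made up 0.506 to 0.615 reads per 1000 reads of the abundant genes in the untreated, 24 h and first 2 of the 48 h libraries, and 0.778 to 0.906 in replicate 3 of 48 h and all 72 h and 96 h libraries. In bulk RNA, fewer cells with a transcript and less RNA per cell cannot be told apart.

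By their median, the mitochondrial ribosomal protein mRNAs stood above most genes that passed the filter and below the cytosolic ribosomal protein mRNAs. Levels between genes are compared as RPKM, that is CPM divided by the table's transcript length in kilobases, averaged over the 14 libraries. The median member stood at 31.8 RPKM, with quartiles of 20.5 and 43.9, against 8.51 for the 13371 genes that passed the filter and 234.2 for 80 cytosolic ribosomal protein genes. The upper quartile of the 13371 genes was 22.3 RPKM. The highest and the lowest member, MRPL51 at 210.1 RPKM and MRPS11 at 7.8 RPKM, differed 26.9-fold, and 43 of the 78 lay between 20 and 50 RPKM. The large subunit had a median of 33.4 RPKM and the small subunit one of 27.0 RPKM. In the large subunit MRPL51, MRPL33 (124.6 RPKM) and MRPL27 (73.0 RPKM) led, and MRPL30 (10.5 RPKM), MRPL22 (9.65 RPKM) and MRPL19 (8.81 RPKM) were lowest. In the small subunit MRPS24 (84.7 RPKM), MRPS15 (70.0 RPKM) and MRPS34 (69.0 RPKM) led, and MRPS14 (12.5 RPKM), MRPS25 (8.23 RPKM) and MRPS11 were lowest.

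**Figure D1:**
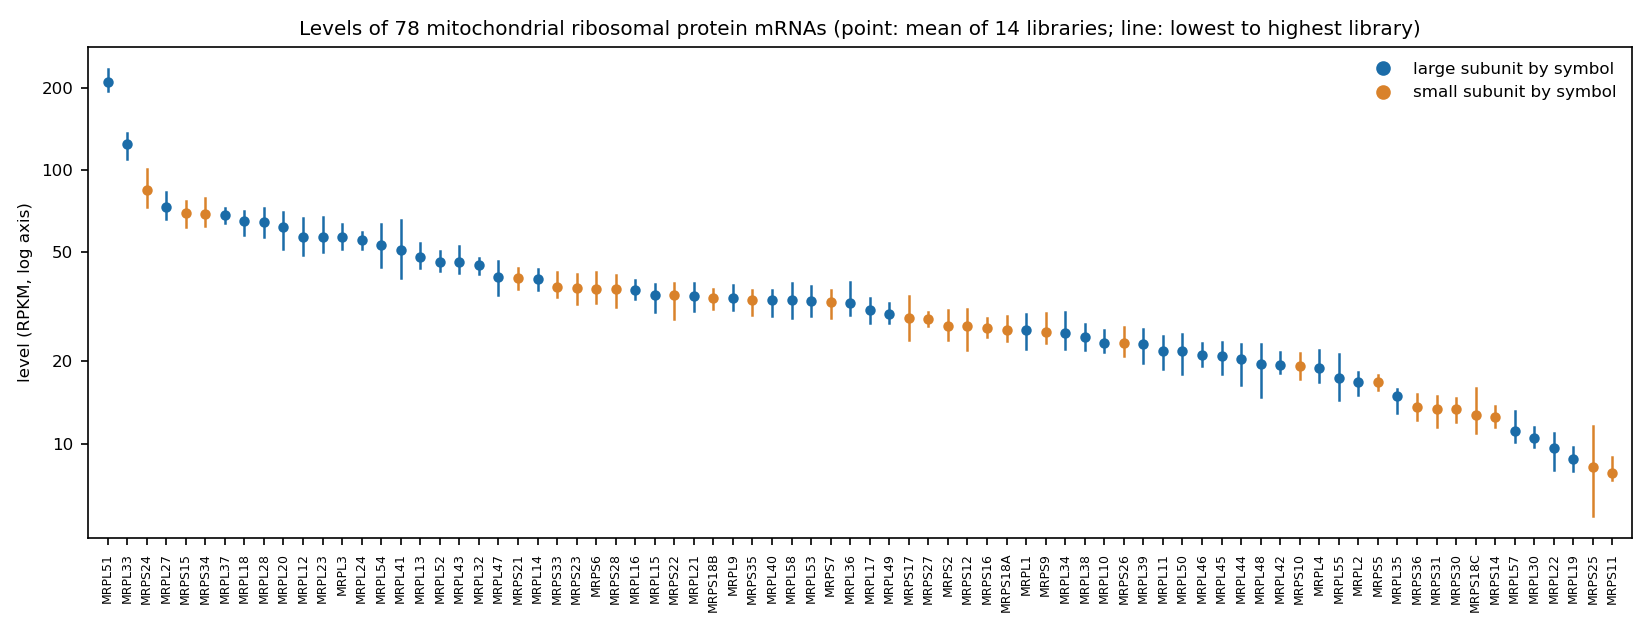
Levels of the 78 members in RPKM on a log axis, ranked by mean; points are means of 14 libraries, lines run from the lowest to the highest library, blue for MRPL and orange for MRPS genes. MRPL51 stands highest at 210.1 RPKM, and most members lie between 20 and 50 RPKM with narrow spreads, apart from MRPS25.

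These levels depend on the transcript that the table lists. The low end held genes with long listed transcripts, such as MRPL19 at 7819 bases and MRPS11 at 4751 bases, whereas the median member was 1173.5 bases long. For 5 members the listed transcript is a non-coding RefSeq entry (MRPL9, MRPS2, MRPL10, MRPS14 and MRPS25), so their RPKM rest on a length that may not be that of the coding mRNA. By counts alone MRPL19 averaged 68.9 CPM, above MRPL33 at 63.8 CPM, though MRPL33 was far higher per length.

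The question for each exposure was whether the genes of either subunit moved against untreated cells. At 24 h 0 of 78 members were called by edgeR's quasi-likelihood test (Benjamini-Hochberg adjusted p under 0.05 over all tested genes), with 0 called among all genes (0%). At 48 h 0 members were called, against 0.00748% of all genes, and at 72 h 0 against 0.179%. At 96 h, when 5.68% of all genes were called, 0 members were. At an unadjusted p under 0.05 the 4 times gave 0, 3, 1 and 2 members, that is at most 3.85% of them, beside 3.42%, 6.01%, 7.24% and 19.8% of all genes. DESeq2 and limma-voom also called 0 members at each time. The 4 comparisons share the 2 untreated libraries and are not independent of each other.

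The estimates of the fit without covariates bounded what was missed in that fit. With the opposite-strand share as a covariate, 96 h estimates moved either way, to 0.57 for MRPL53 and -0.0145 for MRPL47. Intervals from that fit are not given, so the bounds below do not cover it. At 96 h the fitted changes of the members ran from -0.21 to 0.20 on the log2 scale, and the median standard error was 0.091. For 77 of 78 members the 95% interval lay within a 1.5-fold change in either direction, a bound that 72.1% of all tested genes met. The exception was MRPS25, whose interval ran from -0.90 to 0.55. The libraries of the 2 groups did not overlap for 8 members that were higher and 14 that were lower at 96 h, together 28.2% of members against 40.3% of all genes.

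**Figure D2:**
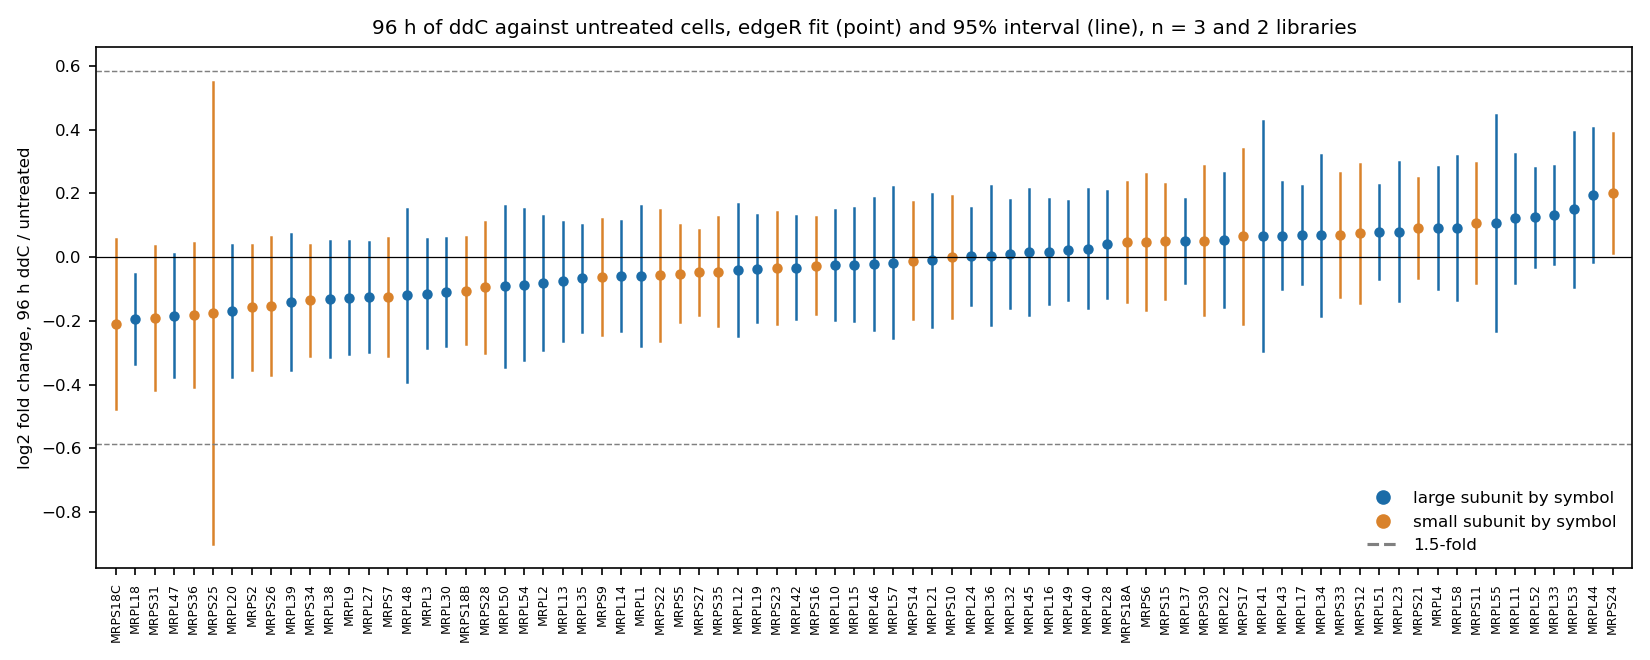
Fitted log2 fold change of each member at 96 h of ddC (n = 3) against untreated cells (n = 2), ordered by size, with 95% intervals from the edgeR fit; dashed lines mark 1.5-fold. All points lie between -0.21 and 0.20, and only the interval of MRPS25 crosses a dashed line.

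For the large subunit the median fitted change was 0.02, 0.04, -0.01 and -0.01 on the log2 scale at 24, 48, 72 and 96 h, and for the small subunit it was 0.02, 0.03, -0.02 and -0.05. The median over all tested genes stayed at 0.01, 0.00, 0.00 and 0.00. Above 0 were 30, 37, 22 and 24 of the 49 MRPL genes at the 4 times, and 17, 18, 11 and 10 of the 29 MRPS genes. Of all tested genes 51.9%, 51%, 51.3% and 49.2% lay above 0. More members of both subunits lay above 0 than below at 48 h, and at 96 h fewer MRPS genes lay above 0 than below while the MRPL genes were evenly split. These directions turned with the setting. At 48 h the medians were -0.0013 (large) and -0.0266 (small) after the correction for transcript length, and at 96 h they were 0.1152 and 0.0576 with the opposite-strand share as a covariate. Without untreated replicate 1 the 96 h medians were 0.0259 and 0.0117, and without untreated replicate 2 the 24 h medians were -0.0068 and -0.0351.

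Structures of the mammalian particle place MRPS30 and MRPS18A in the large subunit, and MRPS36 is now known as a component of the 2-oxoglutarate dehydrogenase complex. With the genes sorted that way, into 51 and 26, the 96 h medians were 0.00 for the large and -0.05 for the small subunit. Of the 10 small-subunit proteins classed as specific to mitochondria, 1 lay above 0 at 96 h, with a median of -0.08, and none of the 10 was called. The 16 small-subunit proteins of bacterial descent had a median of -0.01. In the large subunit the 30 proteins of bacterial descent had a median of -0.02 and the 21 classed as mitochondrial a median of 0.03. The mitochondrial classes include MRPS18A and MRPS18B, which are related to bacterial S18, and MRPL44, which is related to ribonuclease III.

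**Figure D3:**
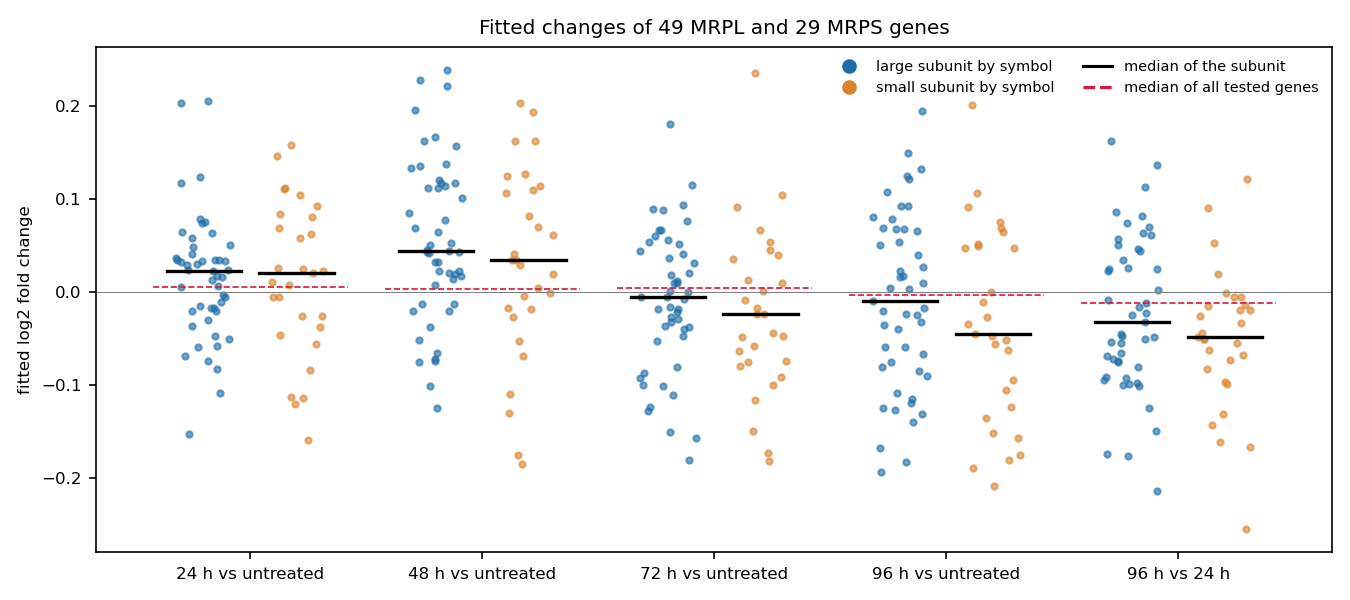
Fitted log2 fold changes of the 49 MRPL (blue) and 29 MRPS (orange) genes in 5 comparisons; each point is a gene, black bars are subunit medians and dashed red lines the median of all 13371 tested genes. The bars stay within 0.05 of 0 in each comparison, and the 2 subunits overlap throughout.

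Among the large-subunit genes MRPL18, which encodes the protein that sits beside the central protuberance, came nearest to the threshold. It was at 69.98 and 65.86 CPM in the untreated libraries, at 66.98, 67.29 and 67.03 CPM at 24 h and at 68.61, 64.67 and 67.64 CPM at 48 h. At 72 h it was at 60.43, 58.85 and 63.38 CPM and at 96 h at 57.12, 57.7 and 63.27 CPM. All 6 libraries of the late times lay below all 8 of the earlier ones, a split whose share over all genes was not counted. The opposite-strand share divides the libraries nearly the same way. Over the alternatives other than leaving out a library, the log2 change at 96 h against untreated was -0.2634 to -0.1804. These include the fits with that share as a covariate, in which MRPL18 was not called. The fitted change at 96 h was -0.19 ± 0.07 (SE) on the log2 scale, a difference of -12.6% with a 95% interval of -20.8% to -3.6%, and edgeR's quasi-likelihood test gave an adjusted p of 0.101. Replicate 3 of 96 h, at 63.27 CPM, was close to the lowest untreated one.

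MRPL47, a protein at the exit tunnel related to bacterial L29, had 54.02 and 44.62 CPM in untreated cells. Its values were 51.89, 44.62 and 54.67 CPM at 24 h, 50.84, 49.4 and 49.74 CPM at 48 h, 48.83, 44.61 and 43.53 CPM at 72 h, and 40.88, 44.56 and 44.84 CPM at 96 h. The lower untreated library overlapped the 96 h libraries, and the fitted change was -0.18 ± 0.09 (SE) on the log2 scale with an adjusted p of 0.281 by edgeR's quasi-likelihood test. It was -0.0415 without untreated replicate 1, -0.32 without untreated replicate 2 and -0.0145 with the opposite-strand share as a covariate. MRPL20, a large-subunit protein of bacterial descent, had 71.8 and 67.36 CPM in untreated cells, 61.19, 62.31 and 62.34 CPM at 96 h, and a lowest value of 54.47 CPM in the second 24 h library. Its 96 h libraries lay below the untreated ones but inside the range of the 24 h ones. The fitted change was -0.17 with an adjusted p of 0.37 by the same test, and it took the other sign (0.07) with the opposite-strand share of reads as a covariate.

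On the higher side, MRPL33, a small protein related to bacterial L33, was at 62.61 and 61.1 CPM in untreated cells, 64.36, 56.27 and 61.2 CPM at 24 h, and 69.44, 59.67 and 65.05 CPM at 48 h. It was at 62.33, 64.06 and 63.99 CPM at 72 h and 67.84, 69.89 and 65.63 CPM at 96 h. The 96 h libraries lay above the untreated, 24 h and 72 h libraries and overlapped those of 48 h. At 96 h against untreated the fit gave a change of 0.13 ± 0.07 (SE) on the log2 scale and an adjusted p of 0.342 by edgeR's quasi-likelihood test, and a change of 0.0445 after the correction for transcript length. MRPL44, a protein related to ribonuclease III, had 34.95 and 28.66 CPM in untreated cells and 36.9, 35.68 and 36.6 CPM at 96 h. Its untreated libraries differed by more than its group means, and the change of 0.19 ± 0.10 (SE) had an adjusted p of 0.297 by the same test and turned to -0.13 with the opposite-strand share and the nuclear RNA score as covariates. It was 0.34 without untreated replicate 1 and 0.0583 without untreated replicate 2. MRPL53, a protein found only in mitochondria, had 21.24 and 19.05 CPM in untreated cells and 22.04, 22.8 and 22.21 CPM at 96 h, a change of 0.15 with an adjusted p of 0.516 by edgeR's quasi-likelihood test. That change was 0.23 and 0.0727 without untreated replicates 1 and 2, 0.0671 after the length correction and 0.57 with the opposite-strand share as a covariate.

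**Figure D4:**
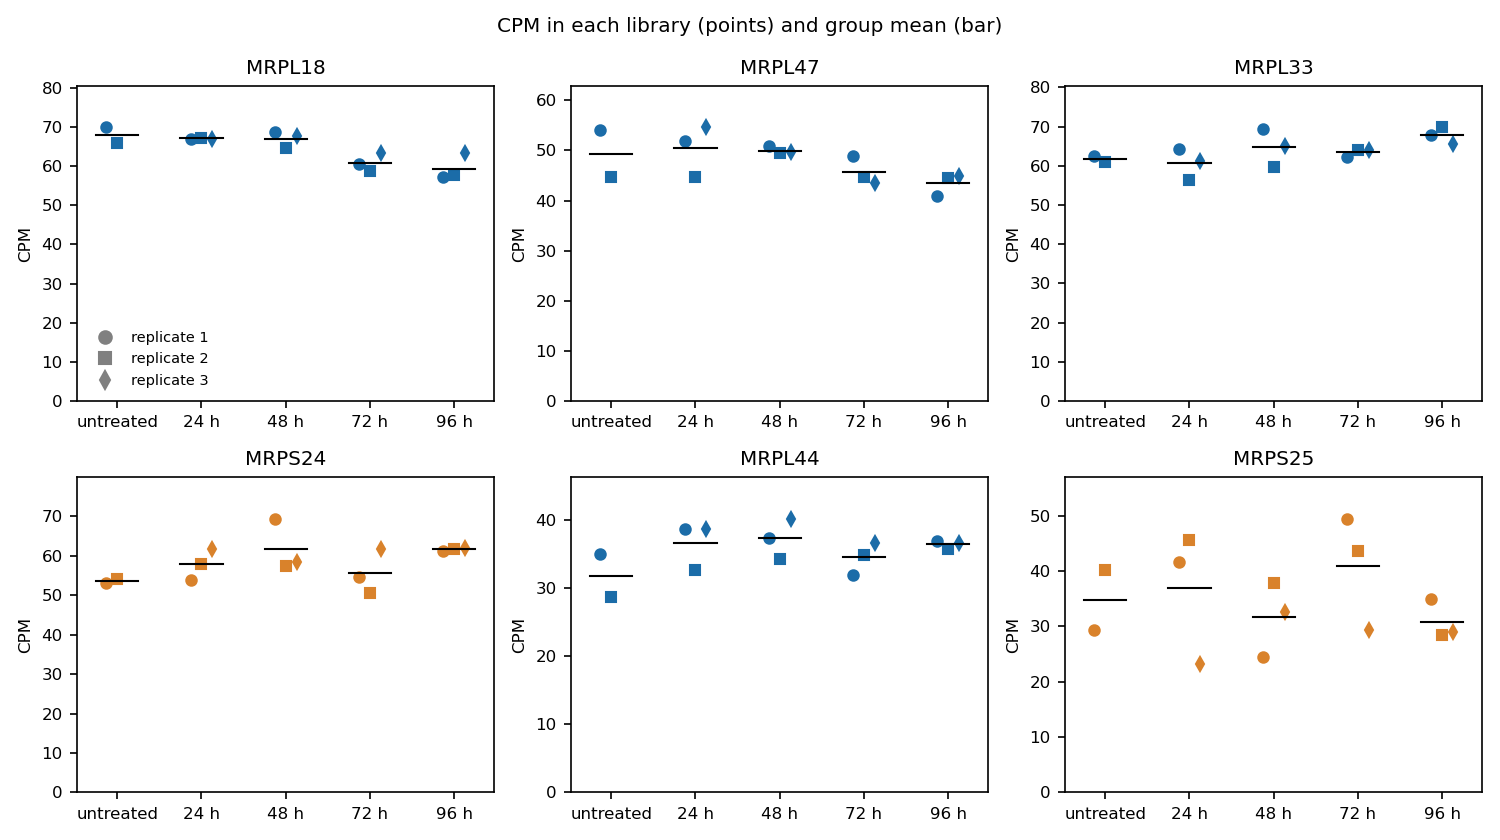
CPM of 6 members in each of the 14 libraries by exposure, with group means as bars and replicate numbers as symbols; blue is the large and orange the small subunit. MRPL18 is lower in all 72 h and 96 h libraries than in the earlier ones, MRPL33 is highest on average at 96 h, and MRPS25 spreads from 23.23 to 49.48 CPM inside the ddC groups.

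The other large-subunit genes chosen for their roles were not called, and for all but MRPL11 their untreated and 96 h libraries overlapped. MRPL12, the stalk protein that contacts translation factors, had 56.6 ± 3.0 CPM (SD, n = 2) in untreated cells, 62.1 ± 7.0 CPM (SD, n = 3) at 48 h and 55.1 ± 3.6 CPM (SD, n = 3) at 96 h. Its stalk partners MRPL10 and MRPL11 had means of 44.1 and 35.2 CPM in untreated cells and 43.4 and 38.3 CPM at 96 h. MRPL45, which ties the exit tunnel to the inner membrane, had 33.6 ± 0.4 CPM (SD, n = 2) in untreated cells and 34.0 ± 3.5 CPM (SD, n = 3) at 96 h. MRPL23, also at the tunnel exit, had 40.1 and 42.4 CPM in the same groups, and MRPL36, a very small protein, had 19.2 CPM in both. MRPL41 had 28.9 ± 1.7 CPM (SD, n = 2) and 30.3 ± 3.8 CPM (SD, n = 3). MRPL3, a core protein near the peptidyl transferase centre, had 104.0 ± 9.9 CPM (SD, n = 2) and 96.0 ± 3.8 CPM (SD, n = 3). MRPL11 was at 35.03 and 35.45 CPM in untreated cells and at 35.86 to 39.6 CPM at 96 h.

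By position in the particle, the 3 stalk genes had a median of -0.03 on the log2 scale at 96 h, the 8 exit tunnel genes 0.03, and the 7 genes of the central protuberance -0.12. In the central protuberance 2 of 7 genes lay above 0, and MRPL18 was the 1 gene there with an unadjusted p under 0.05. None of these genes was called by edgeR's quasi-likelihood test. The most abundant member, MRPL51, had 136.9 ± 5.1 CPM (SD, n = 2) in untreated cells and 144.5 ± 4.3 CPM (SD, n = 3) at 96 h.

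Among the small-subunit genes MRPS24, related to bacterial S3 at the mRNA entry, had the largest positive fitted change. It was at 52.98 and 54.23 CPM in untreated cells, 53.78, 57.99 and 61.73 CPM at 24 h, 69.44, 57.37 and 58.49 CPM at 48 h, 54.67, 50.58 and 61.74 CPM at 72 h, and 61.1, 61.79 and 62.01 CPM at 96 h. The 96 h libraries lay above the untreated ones and close together, but the 72 h libraries spanned both. The fitted change at 96 h was 0.20 ± 0.09 (SE) on the log2 scale, with a 95% interval that corresponds to 0.8% to 31.1% higher, and the adjusted p was 0.219 by edgeR's quasi-likelihood test. It was 0.12 after the length correction and 0.45 with the opposite-strand share as a covariate.

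The most negative fitted change of the small subunit at 96 h was that of MRPS18C, 1 of 3 paralogues related to bacterial S18. It had 14.39 and 15.52 CPM in untreated cells and 12.96, 13.14 and 12.7 CPM at 96 h, a change of -0.21 ± 0.13 (SE) on the log2 scale with an adjusted p of 0.387 by edgeR's quasi-likelihood test. With the opposite-strand share as a covariate it was -0.0085, so its place as the most negative did not hold there. The groups did not overlap, but the 24 h libraries reached from 12.01 to 15.19 CPM and covered nearly both. Its paralogue MRPS18B had group means of 54.0 CPM in untreated cells and 50.1 CPM at 96 h, and MRPS18A had 29.9 and 30.9 CPM. MRPS31, a protein found only in mitochondria, had 19.34 and 18.6 CPM in untreated cells and 15.3, 18.28 and 16.32 CPM at 96 h, with a change of -0.19 ± 0.11 (SE) and an adjusted p of 0.347 by edgeR's quasi-likelihood test. It was -0.39 with the opposite-strand share as a covariate and -0.49 with the nuclear RNA score added to it.

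MRPS12, the decoding-centre protein, had 27.2 ± 1.5 CPM (SD, n = 2) in untreated cells, 30.3 ± 2.7 CPM (SD, n = 3) at 24 h and 28.6 ± 1.5 CPM (SD, n = 3) at 96 h. MRPS2 had 46.7 ± 1.5 CPM (SD, n = 2) and 41.9 ± 1.7 CPM (SD, n = 3) in untreated and 96 h libraries, which did not overlap. MRPS6 had 33.7 ± 2.0 CPM (SD, n = 2) and 34.8 ± 0.5 CPM (SD, n = 3), and MRPS30 had 21.7 ± 2.5 CPM (SD, n = 2) and 22.5 ± 1.9 CPM (SD, n = 3). MRPS36 had 19.6 ± 0.1 CPM (SD, n = 2) and 17.3 ± 1.0 CPM (SD, n = 3), again without overlap and without a call. Of the 7 genes of the decoding region and mRNA path, 4 lay above 0 at 96 h, with a median of 0.08 on the log2 scale.

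MRPS25, a small-subunit protein found only in mitochondria, was the least even member. It was at 29.4 and 40.12 CPM in untreated cells, 41.72, 45.61 and 23.23 CPM at 24 h, 24.5, 37.85 and 32.65 CPM at 48 h, 49.48, 43.67 and 29.39 CPM at 72 h, and 35, 28.37 and 28.94 CPM at 96 h. It varied inside groups by more than between them. Its deviations from the group means followed the nuclear RNA of the library (r = 0.97 with a score of 4 nuclear RNAs), and its listed transcript is a long non-coding entry.

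The rule asked for the 2 subunits to be compared across exposures, and their balance by symbol was steady. MRPS30, MRPS18A and MRPS36 thus counted as small-subunit genes here. The ratio with genes sorted by structure was not computed. Summed over its genes, the large subunit came to 1958 ± 63 RPKM (SD, n = 2) in untreated cells and 1958 ± 41 RPKM (SD, n = 3) at 96 h, and the small subunit to 873 ± 32 RPKM and 865 ± 19 RPKM. The ratio of the sums, large over small, was 2.235 and 2.249 in the untreated libraries. It was 2.242, 2.211 and 2.226 at 24 h, 2.26, 2.283 and 2.202 at 48 h, 2.261, 2.252 and 2.27 at 72 h, and 2.275, 2.213 and 2.302 at 96 h. All 14 libraries lay between 2.202 and 2.302, and the range of each ddC group overlapped that of the untreated libraries, except at 72 h, where the lowest value of 2.252 was just above the higher untreated one. The means were 2.242 ± 0.010 (SD, n = 2) in untreated cells and 2.263 ± 0.046 (SD, n = 3) at 96 h. The highest sums of both subunits were those of the first 48 h library, at 2151 and 951.5 RPKM.

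Along the exposure the question was whether members moved between the first and the fourth day without reference to the untreated cells. Between 96 h and 24 h 0 of 78 members were called by edgeR's quasi-likelihood test, against 3.2% of all genes, with 4 members (5.13%) at an unadjusted p under 0.05 beside 15.2% of all genes. The linear trend from 24 h to 96 h, in log2 units per day, gave 0 called members against 3.76% of all genes, again with 4 at an unadjusted p under 0.05 beside 15.4% of all genes, and the joint test of the 4 times gave 0 against 3.25%, with 1 member at that level beside 13.2% of all genes. DESeq2 gave 0 called members in these 3 comparisons, with 3, 2 and 1 at an unadjusted p under 0.05, and limma-voom gave 0, with 3, 4 and 1.

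MRPL18 had the smallest p of the members for the trend, -0.07 ± 0.02 (SE) log2 units per day, with an unadjusted p of 0.00253 and an adjusted p of 0.0596 by edgeR's quasi-likelihood test. This adjusted p passed the threshold when replicate 3 of 72 h (0.0444) or of 96 h (0.0351) was left out. With a score of 4 nuclear RNAs as a covariate MRPL18 was called lower, with adjusted p of 0.0264 at 96 h against untreated, 0.0363 at 96 h against 24 h and 0.0113 for the trend by edgeR's quasi-likelihood test. In the same fits MRPL20 was called lower at 96 h against untreated (0.0466), and MRPL47 at 96 h against 24 h (0.0409) and for the trend (0.0206). After a per-library correction for transcript length MRPL18 alone was called, with adjusted p of 0.0104, 0.0346 and 0.0176. MRPL47 had a trend of -0.08 ± 0.03 (SE) log2 units per day with an adjusted p of 0.122, which became 0.0318 without the second 24 h library, and between 24 h and 96 h its fitted change was -0.21 ± 0.08 (SE). With the opposite-strand share as a covariate these were -0.0154 and -0.033. MRPL18 differed by -0.18 ± 0.06 (SE) between these times, with an adjusted p of 0.137 by the same test. MRPL33 was the 1 member with an unadjusted p under 0.05 in the other direction, at 0.16 ± 0.07 (SE) and an adjusted p of 0.231, and MRPS9, of bacterial descent, stood at -0.17 ± 0.08 (SE) with an adjusted p of 0.311 by edgeR's quasi-likelihood test. MRPS9 was at 43.4, 35.5 and 40.1 CPM at 24 h and at 34.74, 37.34 and 33.74 CPM at 96 h, so its groups overlapped.

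The medians for 96 h against 24 h were -0.03 on the log2 scale for the large and -0.05 for the small subunit, beside -0.01 for all tested genes. Above 0 were 19 of 49 MRPL genes and 4 of 29 MRPS genes, beside 46.5% of all genes. The libraries of 24 h and 96 h did not overlap for 3 members that were higher and 4 that were lower, 8.97% of members against 19% of all genes. Group means of CPM fell at each step from 24 h to 96 h in 8 members, MRPL13, MRPL18, MRPL30, MRPL45, MRPL47, MRPL54, MRPS9 and MRPS26. These were 12.2% of the large and 6.9% of the small subunit, beside 6.19% of all genes. No member rose at each step, against 6.57% of all genes.

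Across the 14 libraries the 2 subunits varied together, and the members' mean level varied with the nuclear RNA of the library. Mean log2 CPM of the large and of the small subunit correlated over the 14 libraries at r = 0.90 (Spearman rho = 0.89), points that share library size and normalisation. The nuclear RNA score averages log2 CPM over 4 RNAs kept in the nucleus (NEAT1, KCNQ1OT1, MEG3, MALAT1) and ran from 4.24 to 6.87. Against it the mean log2 CPM of the 78 members had r = -0.83 (rho = -0.84), and r = -0.71 over 12 libraries without the 2 farthest from the median score. As deviations from group means r was -0.94 (rho = -0.95). The library with the lowest score, the first at 48 h, had the highest member level, and the second 72 h library and the second 24 h library, both with high scores, had the lowest.

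**Figure D5:**
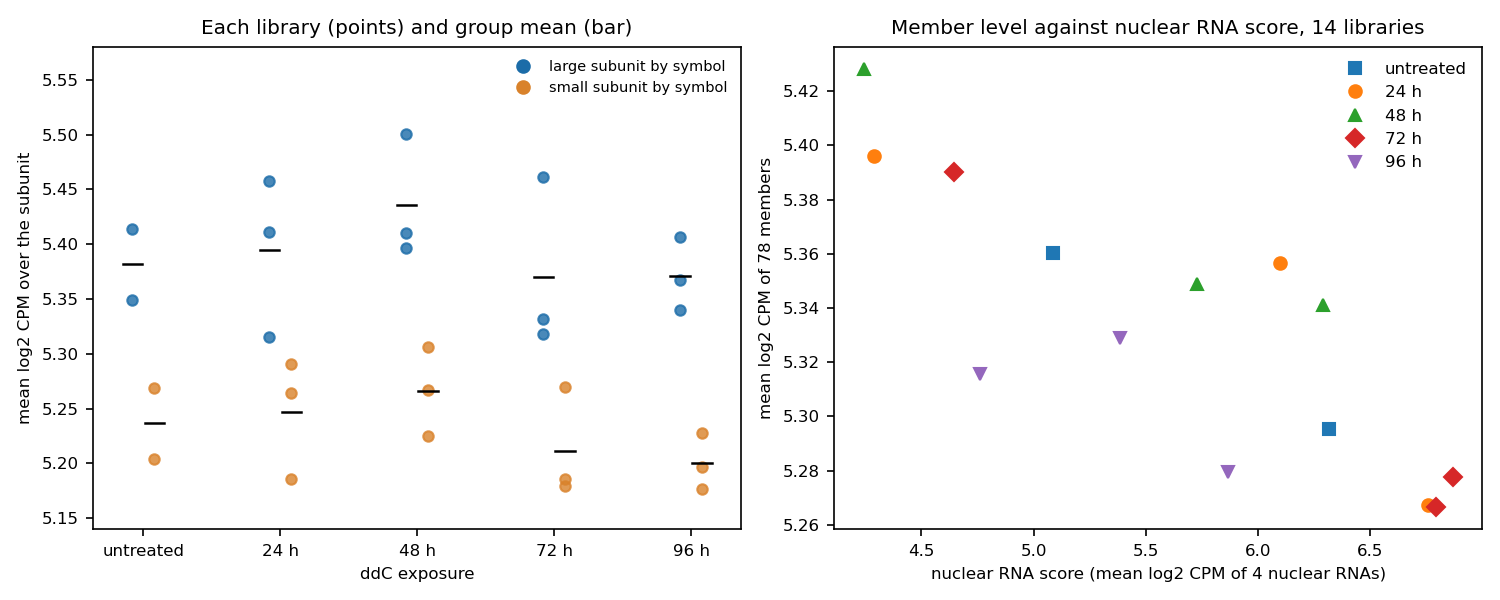
Left, mean log2 CPM of each subunit in each library (points) with group means (bars), by exposure; right, mean log2 CPM of the 78 members against the nuclear RNA score in the 14 libraries. On the left the libraries of the 5 groups overlap within each subunit, and on the right the level is 5.43 at the lowest score of 4.24 and 5.28 at the highest of 6.87.

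This relation ran through nearly all members. As deviations from group means, 74 of 78 members (94.9%) correlated negatively with the score, with a median r of -0.59, against 54% of all tested genes with a median of -0.08. MRPL3 reached -0.95, and MRPL51 and MRPS35 each -0.87. The 4 members with positive values were MRPL38 at 0.14, MRPS5 at 0.42, MRPL2 at 0.52 and MRPS25 at 0.97. The large subunit had a median of -0.58 and the small one of -0.63. Whether nuclear RNA content sets the members' levels was not tested.

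The proteins that work with the mitochondrial ribosome were followed through 3 lists. At 96 h edgeR's quasi-likelihood test called 5.68% of all genes, and 19.8% had an unadjusted p under 0.05. Of 5 mitochondrial ribosomal proteins with other symbols, 0 were called by that test and 1 (20%) had an unadjusted p under 0.05. That gene was GADD45GIP1, a large-subunit protein, at 0.26 ± 0.12 (SE) on the log2 scale with an adjusted p of 0.24. DAP3, the small-subunit GTP-binding protein, stood at 0.01. Of 17 mitochondrial translation factors 0 were called, and 2 (11.8%, beside 19.8% of all genes) had an unadjusted p under 0.05. GUF1, the mitochondrial elongation factor 4, stood at -0.19 (adjusted p of 0.189 by edgeR). PDF, which removes the formyl group from nascent chains, stood at 0.26 (adjusted p of 0.204 by the same test).

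Of 26 factors that assemble the particle or modify its rRNA, 1 was called (3.85%), no more than the 5.68% of all genes. DHX30, an RNA helicase of mitochondrial RNA granules, fell by 0.25 ± 0.07 (SE) on the log2 scale at 96 h, with an adjusted p of 0.0273 by edgeR's quasi-likelihood test. That call did not hold when any 1 of the 5 libraries compared was left out: the adjusted p was 0.107 and 0.255 without untreated replicates 1 and 2, and 0.0721, 0.0791 and 0.0629 without 96 h replicates 1, 2 and 3. With the opposite-strand share as a covariate it was 0.276. MRM1, a methyltransferase of the mitochondrial large rRNA, stood at -0.45 ± 0.17 (SE) with an adjusted p of 0.135. Over the list 8 of 26 lay above 0 and the median was -0.07. The cytosolic ribosomal proteins lay the other way, with 59 of 80 above 0, a median of 0.10, 2 called higher and 0 lower, that is 2.5% beside 5.68% of all genes. The 2 were RPS27L, a paralogue of RPS27 known as a p53 target, at 0.38 ± 0.07 (SE) with an adjusted p of 0.00122, and RPL23A at 0.33 ± 0.08 (SE) with an adjusted p of 0.017, both by edgeR's quasi-likelihood test.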

How the data were processed

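Polyadenylated RNA from 14 IMR90 libraries was prepared with a stranded Illumina TruSeq kit, per the labels' protocols. The deposited values are raw gene counts, made by the authors with STAR 2.5.3a and HOMER on hg19, per the submitters' processing notes; the strand setting of the counting is not given in the sources used here. All 14 columns were matched to samples by name. Groups were taken from the labels. Members and gene lists were chosen with earlier results of these data known.

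The counts were fitted on the whole table with edgeR 4.0.16 in R 4.3.3: filterByExpr with its defaults (minimum count 10, minimum total 15) left 13371 of 27142 genes, TMM factors were 0.971 to 1.02, and robust quasi-likelihood F tests used 1 mean per group over all 14 libraries. P-values were Benjamini-Hochberg adjusted over all 13371 genes and called under 0.05. Mean log2 CPM used a prior count of 3. SE is the size of the log2 fold change divided by the square root of F. The script was tested on simulated data. Genes were named by rule: members called, the 4 largest changes in each direction at 96 h, the 3 highest and 3 lowest levels per subunit, and a list of roles; MRPL20 and MRPS9 were added after their values were seen, as was the choice of promoters shown.

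Alternatives were DESeq2 1.42.0, limma-voom 3.58.1, median-ratio size factors, no filter, only the groups compared, a replicate block, the nuclear RNA score as covariate, a transcript length correction and each library left out. The share of reads on the opposite strand, alone or with the nuclear score, was added as a covariate after the data were seen. Replicate numbers were not taken to pair samples.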

Additional observations from a re-analysis of the deposited data

How the results depend on the processing

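In 167 recomputations over the 7 comparisons, at most 2 members passed the threshold, and in 11 at least 1 did. With the score of nuclear RNA as a covariate 2 members were called lower at 96 h against untreated (MRPL18 and MRPL20), 2 at 96 h against 24 h and 2 for the trend (MRPL18 and MRPL47 in both), and 1 in the joint test (MRPL18). With the transcript length correction MRPL18 alone was called, 1 member in each of these 4 comparisons. Leaving out libraries gave 0 to 1 called members for the trend and 0 elsewhere. The replicate block left 0 members called in each comparison, with 687 genes called in all at 96 h against 759. Same-numbered libraries correlated at -0.361 to 0.611 over 26 pairs, 11 of them over 0.1. Libraries of different groups and numbers correlated at -0.489 to 0.512 over 52 pairs, 18 of them over 0.1. The medians were -0.029 and 0.042, and the numbers were not treated as a pairing. The small-subunit median at 48 h became -0.0266 with the length correction. With the opposite-strand share of reads as a covariate the large-subunit median became 0.0832 at 72 h, 0.1152 at 96 h, 0.1185 at 96 h against 24 h and 0.0319 for the trend, and the small-subunit median 0.0576, 0.0395 and 0.0084 in the last 3. With both covariates the small-subunit median for 96 h against 24 h was -0.1063. That share nearly separates early from late exposures. Without 1 library the small-subunit median ranged from -0.0351 to 0.0658 at 24 h, -0.089 to 0.0152 at 72 h and -0.099 to 0.0117 at 96 h, and the large-subunit median from -0.0188 to 0.0595, -0.0587 to 0.0284 and -0.0277 to 0.0259. MRPL20 at 96 h turned to 0.0708 and MRPS9 to 0.0126 with the opposite-strand share, MRPS9 ranged from -0.1368 to 0.0117 without 1 library, and MRPL44 turned to -0.1261 with both covariates. The causes were not tested. With subunits by symbol, their ratio as summed CPM was 1.89, 1.87, 1.90, 1.90 and 1.91 from untreated to 96 h. As a difference of mean log2 RPKM it was 0.33, 0.33, 0.35, 0.34 and 0.35. With 2 untreated libraries, changes of a few percent in single genes were not detectable.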
